A study of Drosophila melanogaster with 12 samples.

Results

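The libraries described here are the 9 made from Drosophila S2 cells that received TMPyP4, out of 12 in the series. They were taken by their labelled drug and dose: 3 libraries at 25 µmol/L, 3 at 50 µmol/L and 3 at 100 µmol/L, each after 48 hours. The 3 DMSO libraries, whose label gives a concentration of unstated meaning, entered no fit, and their levels are shown only beside the others. S2 is an established cell line with hemocyte-like properties, so every group shares 1 genetic background. Poly(A) RNA was sequenced from stranded libraries, and the labels describe the RNA as a mixed preparation with zebrafish RNA. Nothing in the labels says that replicates came from separate cultures, so p-values measure the spread between these libraries only. The question was which genes rose or fell evenly from 25 to 100 µmol/L, and which turned at 50 µmol/L, when treated cells are compared only with treated cells.

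TMPyP4 is a cationic porphyrin that stacks on G-quadruplexes, the folded structures of guanine-rich DNA and RNA. Cells can answer a drug in proportion to its dose, only above a threshold, or most strongly at an intermediate dose. Heat shock genes, switched on by the factor Hsf when proteins misfold, and the immune genes of the Imd pathway, which run through the NF-kappaB factor Relish, are inducible programmes of this kind in fly cells.

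The 9 libraries held 4669194 to 9662038 gene counts, with the 50 µmol/L libraries at 4669194 to 6125645 and the 25 µmol/L libraries at 7570350 to 7955869. Of 17494 genes, 7231 passed the filter on low counts. Of 8 hemocyte markers, 6 had over 10 counts in all 9 libraries, while NimC1 had 0 counts in every library at 25 and 50 µmol/L. The 8 summed to 2630 to 3550 CPM (counts relative to library size). Sums of markers had no TMM scaling, which all later CPM levels had. Muscle markers summed to 0.931 to 6.43 CPM and the 4 gut markers had 0 counts in all 9 libraries. Of the germline markers, bam and aub were expressed, and that list summed to 237 to 303 CPM. Libraries of 1 group differed among themselves: on the first principal component, which held 38.9% of the variance, replicate 1 lay at -3.14 against 21.2 and 21.2 for the other two at 25 µmol/L. At 50 µmol/L replicate 1 lay at 8.07 against -31 and -18.5.

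In edgeR no gene showed an even rise or fall across the 3 concentrations that passed the test. Only foi passed the linear test there, and its rise was a step between 50 and 100 µmol/L. What passed was mostly a departure from a straight line at 50 µmol/L, which a turn, a step or a plateau can give. There 12 genes were higher than the average of 25 and 100 µmol/L, 9 of them heat shock genes. Another 3 were lower, led by the Imd inhibitor pirk. In 11 of these 15 genes, which were called from the same libraries, all 3 libraries at 50 µmol/L lay outside the other 6. The linear slope (log2 units per doubling of the dose) was called at an adjusted p under 0.05 in edgeR for 1 of 7231 genes, 0.0138%, and for 0 falling genes; DESeq2 called 6 at the same adjusted threshold, 3 in each direction. At an unadjusted p under 0.05 edgeR had 376 genes (5.2%), 180 of them with a slope above 0 (2.49%) and 196 below (2.71%), and DESeq2 had 380. The departure and joint tests reached that level in 727 genes (10.1%) and 621 genes (8.59%). The departure from a straight line (log2 level at 50 µmol/L minus the mean of the log2 levels at 25 and 100 µmol/L) was called for 15 genes, 0.207%, of which the 12 higher were 0.166% and the 3 lower 0.0415%. That split by direction did not hold in every setting: DESeq2 called 18 higher and 23 lower, edgeR with no filter on low counts 30 and 99, and edgeR without 50 µmol/L replicate 1 14 and 37. Tested jointly for a difference of either kind, 23 genes were called, 0.318%. Of the 23, the group mean was highest at 50 µmol/L in 16, lowest there in 4, rising in 2 and falling in 1. Over all genes the means were highest at 50 µmol/L in 38.3%, lowest in 37.7%, rising in 12.4% and falling in 11.6%, and all 3 libraries at 50 µmol/L lay outside the other 6 in 4.33% (2.05% above and 2.28% below). The spread of single libraries set how small a change could be called, since the median standard error (SE) was 0.082 for a slope and 0.138 for a departure.

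**Figure D1:**
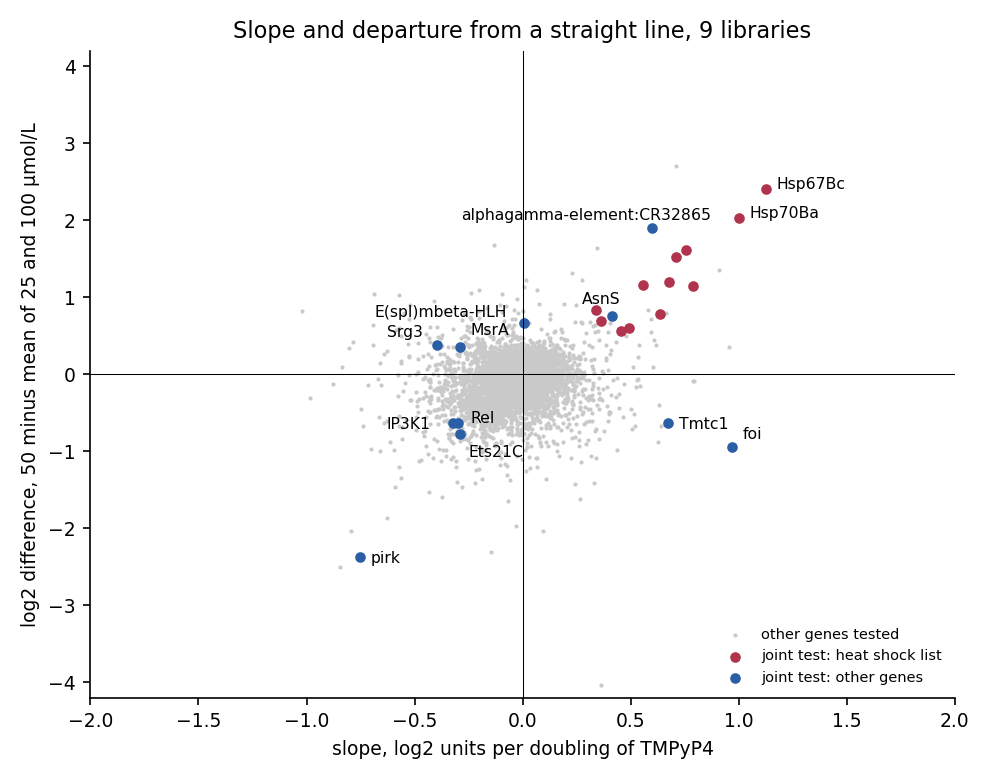
Slope over the 3 TMPyP4 concentrations (x axis, log2 units per doubling) against the difference of 50 µmol/L from the mean of 25 and 100 µmol/L (y axis, log2 units) for 7231 genes. Coloured points are the 23 genes called in the joint test, 12 of them from the heat shock list (red). A gene that changed evenly would lie on the horizontal line away from 0; the called genes lie above or below it, with Hsp67Bc at 2.41 and pirk at -2.37.

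The gene foi (fear of intimacy) encodes a zinc transporter of the ZIP family and lies on chromosome 3L from 8525244 to 8534503, plus strand. Its level was 69.3, 70.7 and 64.7 CPM at 25 µmol/L and 74.6, 76.5 and 55.7 CPM at 50 µmol/L. At 100 µmol/L it was 195, 258 and 319 CPM. The 3 libraries at 100 µmol/L stood above all 6 others, while those at 25 and 50 µmol/L overlapped each other; DMSO libraries were at 65.4, 45.1 and 59.8 CPM. The slope was 0.97 (SE 0.144, adjusted p = 0.0486 in edgeR), but only 0.576% of the change lay between 25 and 50 µmol/L. The step from 25 to 50 µmol/L was 0.01 (SE 0.163) and that from 50 to 100 µmol/L 1.90 (SE 0.162) on the log2 scale. The same gene was therefore also among the 3 called lower at 50 µmol/L than a straight line gives, by -0.94 (SE 0.145, adjusted p = 0.00574 in edgeR). The slope call was lost when any of 7 single libraries was left out (each at 25 and 100 µmol/L, and replicate 1 at 50 µmol/L), with slopes of 0.822 to 1.036 over all 9 omissions. It was also lost after thinning to the shallowest library, and with title number runs as a factor (libraries grouped by neighbouring numbers in the sample titles, whose meaning is not stated). The call of the departure was lost without 50 µmol/L replicate 3. Of the other 11 tested genes of zinc transport and metallothioneins, 0 were called in any of the 3 tests, and the whole list had a median slope of -0.0491 against -0.0031 over all genes.

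The joint test called 3 more genes whose difference lay mostly between 50 and 100 µmol/L. None of them passed the linear test in edgeR. Nor did any pass the test of the departure, where the adjusted p in edgeR was 0.157 for MsrA, 0.400 for Srg3 and 0.456 for Tmtc1. DESeq2 called the slope of Srg3 and the departure of MsrA. MsrA, which reduces oxidised methionine, was at 144, 149 and 142 CPM at 25 µmol/L and at 162, 152 and 139 CPM at 50 µmol/L. It was at 95.3, 100 and 94.7 CPM at 100 µmol/L, below all 6 other libraries and below the DMSO libraries, which had 121, 136 and 109 CPM. The log2 step was 0.06 (SE 0.0928) and then -0.64 (SE 0.0943), with an adjusted p of 0.00439 in the joint edgeR test. Srg3 was at 64.5, 62.7 and 66.5 CPM, then 60.7, 59.6 and 70 CPM, then 44.7, 31.2 and 34.5 CPM at the 3 rising doses. Its steps were -0.03 (SE 0.133) and -0.78 (SE 0.138), and its joint adjusted p in edgeR was 0.0148. Tmtc1, whose mammalian relative attaches mannose to cadherins, went the other way, and was named after its values were seen. It was at 4.17 to 5.25 CPM at 25 µmol/L, 4.66 to 5.33 CPM at 50 µmol/L and 10.6, 14.2 and 12.1 CPM at 100 µmol/L, and the libraries at 100 µmol/L overlapped no others. Its first step was 0.03 (SE 0.271) and its last 1.29 (SE 0.26), with a joint adjusted p of 0.0255 in edgeR. DMSO lay between, at 7.06 to 7.68 CPM, so the level at 25 and 50 µmol/L was below that of every DMSO library. The joint call of each of these 3 genes was lost without certain single libraries: for MsrA without 100 µmol/L replicate 1 or 3, for Srg3 without 25 µmol/L replicate 3 or 100 µmol/L replicate 2 or 3, and for Tmtc1 without 25 µmol/L replicate 2 or 3 or any library at 100 µmol/L. All 3 were lost with title number runs as a factor, and Srg3 with the offset for exonic length.

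**Figure D2:**
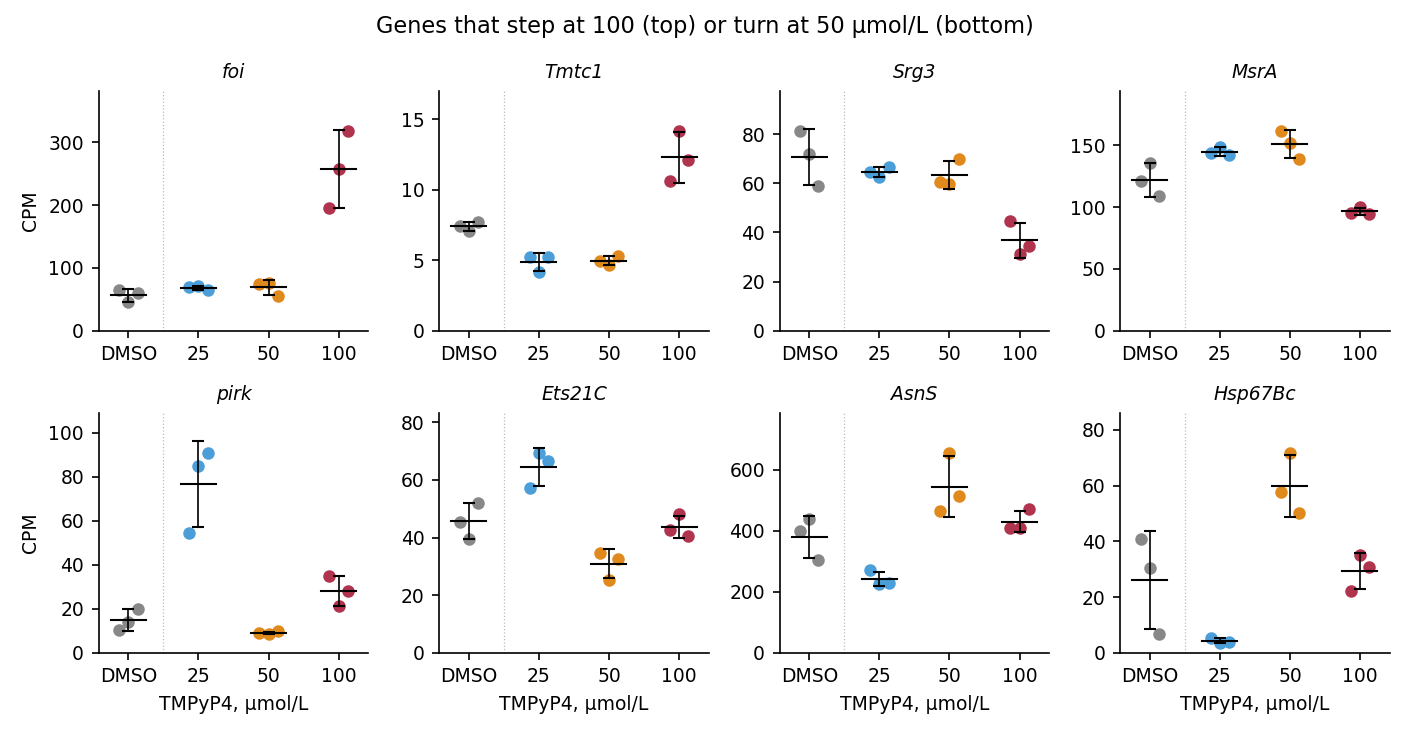
Level of 8 genes in each library (y axis, CPM) by group (x axis, DMSO or TMPyP4 in µmol/L). Points are libraries, horizontal bars the mean and error bars the SD of 3. In the upper row the libraries at 25 and 50 µmol/L lie together and those at 100 µmol/L apart, such as 195 to 319 CPM for foi; in the lower row 50 µmol/L is the lowest (pirk, Ets21C) or highest group (AsnS, Hsp67Bc).

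Genes with an even change were sought directly. In 6 of 7231 genes, 0.083%, all 9 libraries stood in the order of their concentrations (4 ascending, 0.0553%, and 2 descending, 0.0277%). None of the 6 passed any of the 3 tests, and all were chosen after seeing their values. Ascending were CG10365, gwl (the mitotic kinase Greatwall), muc (a subunit of pyruvate dehydrogenase) and Sply (sphingosine-1-phosphate lyase); descending were icln, a factor of snRNP assembly, and CG12560. CG10365 had the largest slope of the 4, and stood at 56.3, 50.9 and 50.8 CPM, then 65.4, 70.6 and 57.5 CPM, then 78.7, 76.7 and 75.6 CPM. Its steps of 0.29 (SE 0.11) and 0.26 (SE 0.109) were alike, its slope was 0.27 (SE 0.0534, adjusted p = 0.457 in edgeR), and its exons overlap those of Rpn9 on the other strand. The slopes of the 6 ran from -0.35 for CG12560 to 0.27 for CG10365.

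Ldh, lactate dehydrogenase, had 9.63, 8.46 and 6.87 CPM at 25 µmol/L, then 7.99, 13.5 and 10.7 CPM, then 20.6, 14.8 and 12.5 CPM at 100 µmol/L. Its mean was higher at each dose and 36.8% of the log2 difference lay in the first step, but at 25 and 50 and at 50 and 100 µmol/L the libraries overlapped, and the slope of 0.47 (SE 0.125) had an adjusted p of 0.601 in edgeR. CG8008 had 19.5, 21.6 and 24.2 CPM, then 19.2, 13.5 and 12.5 CPM, then 14.5, 11.1 and 8.97 CPM, with 56.8% of its log2 difference in the first step. Its slope was -0.46 (SE 0.109, adjusted p = 0.515 in edgeR), and all 3 libraries at 100 µmol/L lay below all 3 at 25 µmol/L, as in 6.08% of all genes (6.75% had the reverse order). The 3 genes of negative slope with the smallest p, none past the threshold in the fit reported, were rost, MFS14 and Srg3, each with an adjusted p of 0.460 in edgeR. DESeq2 called the slope of all 3, and edgeR with no filter on low counts called those of rost and Srg3. Srg3 was also called for the contrast of 100 and 25 µmol/L in the fit with 3 levels. Rolling stone (rost), a protein of myoblast fusion, had 85.1% of its difference in the first doubling, while MFS14, a transporter of the major facilitator family, had steps of -0.18 (SE 0.148) and -0.52 (SE 0.152).

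**Figure D3:**
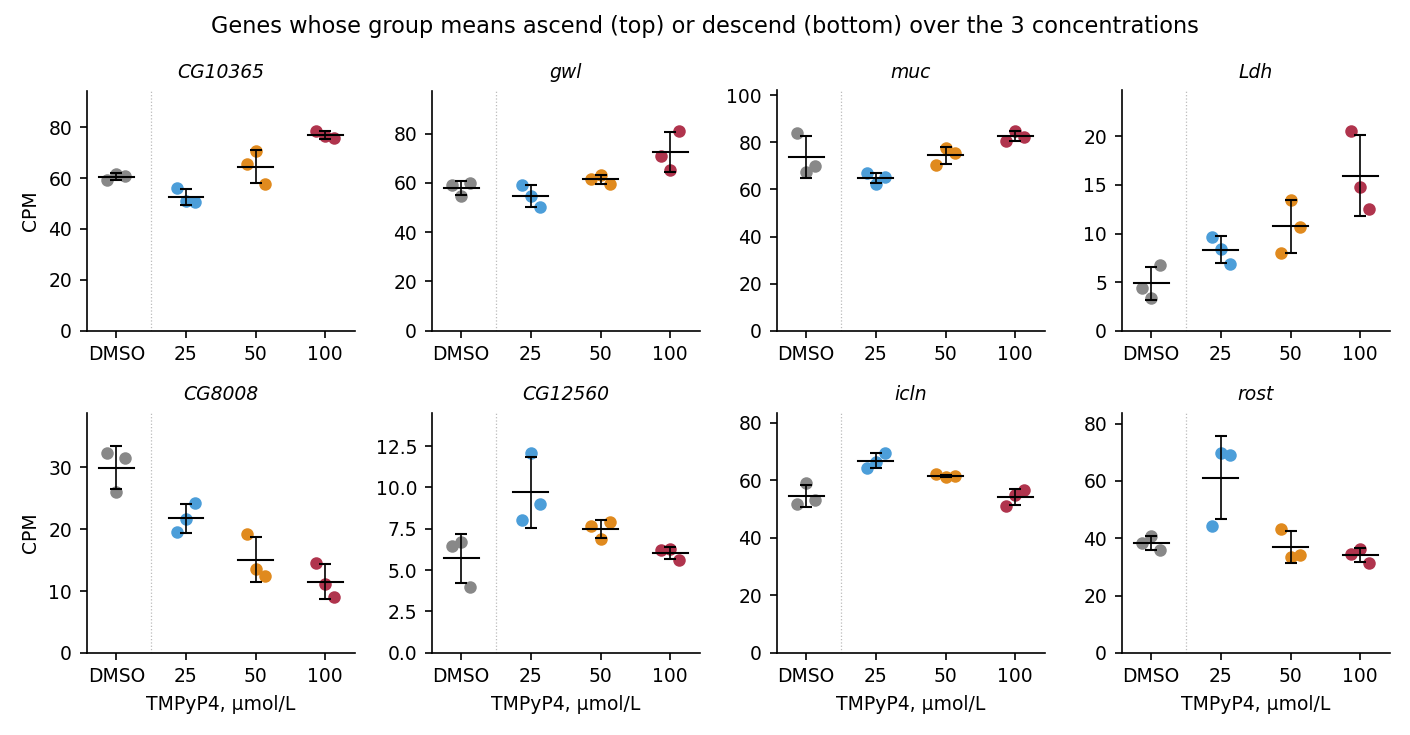
Level of 8 genes (y axis, CPM) whose group means ascended (upper row) or descended (lower row) over TMPyP4 concentrations (x axis, µmol/L, with DMSO at the left). Points are libraries, horizontal bars the mean and error bars the SD of 3. None passed the linear test in edgeR, while DESeq2 called rost. CG10365 has steps of 0.29 and 0.26 on the log2 scale, and rost has 85.1% of its difference between 25 and 50 µmol/L.

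The heat shock genes gave the main departure from a straight line. The 9 called were lowest at 25, highest at 50 and between these at 100 µmol/L. Hsp83, Hsp67Ba, Hsp70Aa and the noncoding RNA Hsromega passed none of the 3 tests. The list held 18 genes, of which 16 were tested; 9 were called higher at 50 µmol/L and 0 lower, and 12 were called in the joint test. All 16 had a departure above 0, against 3663 of all 7231 genes, and 15 had their highest mean at 50 µmol/L. The median slope of the list was 0.53 and the median departure 0.81, against -0.0031 and 0.0035 over all genes. All 3 libraries at 50 µmol/L were above all 3 at 25 µmol/L in 14 of the 16, and above all 3 at 100 µmol/L in 7. The shares of all genes with these orders were not counted. In 7 of the 16 members the libraries at 50 µmol/L lay above all 6 others, against 2.05% of all genes. These 7 were among the 9 called from the same libraries. All 3 libraries at 100 µmol/L were above all 3 at 25 µmol/L in 14 of the 16, against 6.75% of all genes. None of the 16 passed the linear test, in which the distance of the 50 µmol/L libraries from the line counts as spread. In the fit with 3 separate levels, 19 genes (0.263%) differed between 100 and 25 µmol/L, and 12 of the 16 that were higher at 100 µmol/L were on the list. Of all genes, 4.23% had an unadjusted p under 0.05 for a level above the line at 50 µmol/L, as had 15 of the 16 here.

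Hsp67Bc, a small heat shock protein that works with the co-chaperone Starvin in clearing protein aggregates, had the largest called departure. It lies on chromosome 3L from 9371511 to 9372497, minus strand, in the cluster that also holds Hsp26, Hsp67Ba, Hsp23 and Hsp27 and reaches to 9385694. It was at 5.25, 3.66 and 4.0 CPM at 25 µmol/L, 57.5, 71.8 and 50.2 CPM at 50 µmol/L and 22.3, 35.2 and 30.7 CPM at 100 µmol/L. No library of any dose overlapped those of another. The mean was 13.9 times higher at 50 than at 25 µmol/L and 0.491 times that level at 100 µmol/L, and the departure was 2.41 (SE 0.165, adjusted p = 2.0e-06 in edgeR). Its neighbours Hsp26, Hsp23 and Hsp27 rose at 50 µmol/L by 2.14, 2.03 and 2.68 times. They stayed near that level at 100 µmol/L, at 0.926, 0.93 and 0.907 times the mean at 50 µmol/L. Of these 3, only Hsp27 was called for the departure in the fit reported, 0.78 (SE 0.13, adjusted p = 0.0115 in edgeR), and that call was lost without 50 µmol/L replicate 2. The departures of Hsp23 and Hsp26 were called with DESeq2, with no filter on low counts and without 25 µmol/L replicate 1. That of Hsp26 was also called with title number runs as a factor. The difference in shape between Hsp67Bc and its neighbours was not tested.

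The genes of the chaperone Hsp70, which refolds proteins using ATP, are near-identical copies, so reads may be split among them and single values are uncertain. Summed over 6 copies, they were at 1461, 1025 and 727.5 CPM at 25 µmol/L, 4077, 4271 and 3429 CPM at 50 µmol/L and 2055, 2257 and 3070 CPM at 100 µmol/L. The 3 doses did not overlap. The departure of the sum was 1.27 (SE 0.173, adjusted p = 0.00279 in edgeR), a sum added after the data were seen. Hsp70Ba showed the largest change of the single copies, from 254, 110 and 78.9 CPM to 1221, 1407 and 1039 CPM and then 452, 543 and 821 CPM, with a departure of 2.03 (SE 0.26, adjusted p = 0.00107 in edgeR). The other copies called for the departure were Hsp70Bbb at 1.62, Hsp70Bb at 1.52 and Hsp70Bc at 1.15. In the fit reported Hsp70Ab passed only the joint test, and Hsp70Aa neither. The departure of Hsp70Ab was called with DESeq2, with no filter on low counts, with the length offset and with title number runs. It was also called without 25 µmol/L replicate 1 or 100 µmol/L replicate 3. That of Hsp70Aa was called with no filter. The joint calls of Hsp70Ab and Hsp26 were lost without 25 µmol/L replicate 2 or 3, and that of Hsp23 also without 100 µmol/L replicate 1; all 3 were lost with title number runs as a factor. The long noncoding RNA alphagamma-element:CR32865, a heat-inducible transcript that was on no list, lies between Hsp70Ba and Hsp70Bbb on chromosome 3R from 12475336 to 12478267. It was at 8.5, 8.46 and 10.1 CPM, then 71.8, 51 and 38 CPM, then 18.6, 27.7 and 23 CPM, in the same order as the copies beside it, with no overlap between doses. Its departure was 1.90 (SE 0.181, adjusted p = 6.19e-05 in edgeR).

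Hsp68, an inducible relative of Hsp70, was the most abundant called gene. Its libraries had 2257, 1398 and 1053 CPM, then 5782, 6397 and 5184 CPM, then 3485, 3920 and 4681 CPM, with a departure of 1.20 (SE 0.177, adjusted p = 0.00388 in edgeR). Its exons overlap CG6000 and a noncoding gene on the other strand. The co-chaperones moved in the same order. DnaJ-1, the Hsp40 partner of Hsp70, was at 465, 456 and 422 CPM, then 1065, 1152 and 821 CPM, then 726, 708 and 731 CPM, and its departure was 0.83 (SE 0.102, adjusted p = 0.00107 in edgeR). Starvin (stv), the BAG-domain partner of Hsp70, had 66.7, 45.7 and 35.2 CPM, then 202, 212 and 160 CPM, then 146, 143 and 168 CPM. Its departure was 1.14 (SE 0.147, adjusted p = 0.00107 in edgeR), although libraries at 50 and 100 µmol/L overlapped. Hsp83, the fly Hsp90, had the smallest slope and departure of the list, at 7995 to 10400 CPM at 25 µmol/L, 9743 to 11870 CPM at 50 µmol/L and 8870 to 12040 CPM at 100 µmol/L, and passed none of the tests. The noncoding RNA Hsromega, which holds nuclear RNA-binding proteins, was the member whose mean did not turn: 98.3% of its log2 difference lay in the first doubling, between 112 ± 18.3 and 204 ± 60.3 CPM, and it stood at 205 ± 14.6 CPM at 100 µmol/L (SD, n = 3). Hsromega was not called in any of the tests (joint adjusted p = 0.0553 in edgeR).

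**Figure D4:**
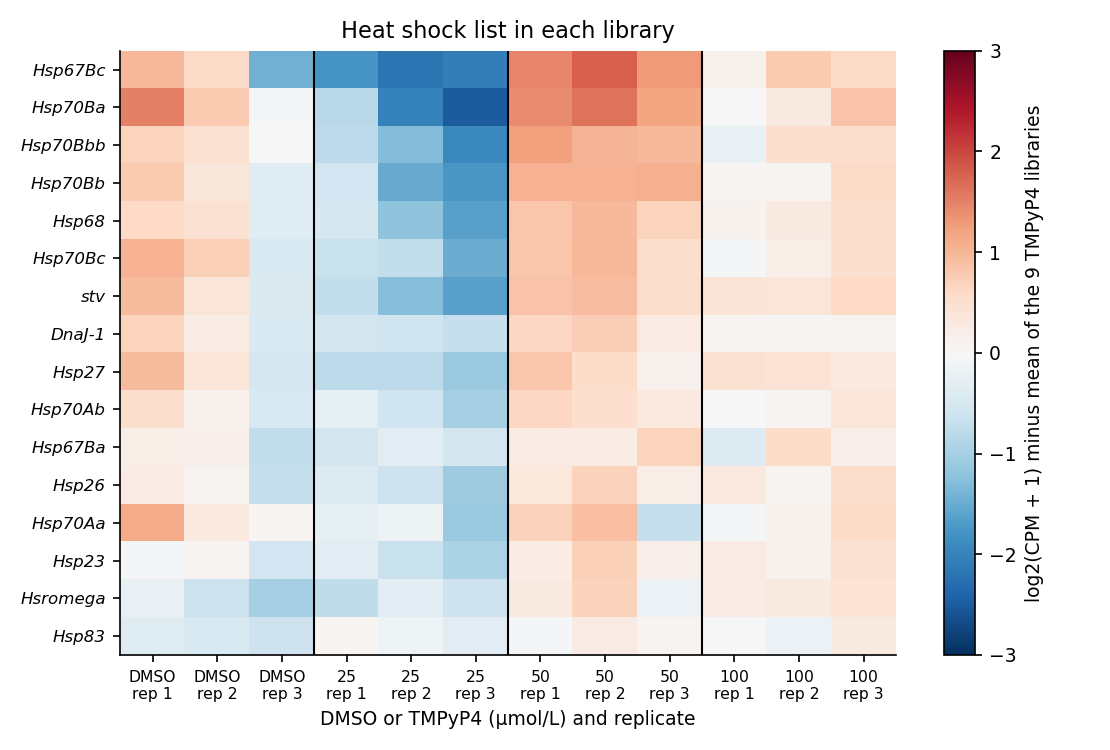
Level of the 16 tested heat shock genes in each library, as log2(CPM + 1) minus the gene's mean over the 9 TMPyP4 libraries (colour scale, log2 units); columns are libraries by group and replicate, rows are genes ordered by their departure at 50 µmol/L. All 3 libraries at 50 µmol/L are above all 3 at 25 µmol/L for 14 genes (the share of all genes was not counted). The DMSO libraries range from high in replicate 1 to low in replicate 3.

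The same genes also varied among libraries of 1 group. The median level of the list, relative to each gene's mean over the 9 libraries, was -0.56, -0.70 and -1.11 log2 units at 25 µmol/L, with 0.76, 0.83 and 0.39 at the middle dose. The libraries at 100 µmol/L had 0.06, 0.22 and 0.51. Replicate 3 was the lowest of its group at 25 µmol/L in 14 of 16 genes. In DMSO the list stood at 0.67, 0.31 and -0.45, with replicate 3 lowest for all 16 genes and replicate 1 highest for 15. DMSO replicate 1 exceeded replicate 3 by 1.21 to 6.1 times, with a median of 2.07. The range of DMSO overlapped that of 25 µmol/L in 5 genes, of 50 µmol/L in 8 and of 100 µmol/L in 13. None of these counts over the 16 genes was made over all genes. The part that this spread between libraries has in the departure at 50 µmol/L was not tested. The constitutive chaperones, a list of genes that fold proteins without stress, held no called gene among 18 tested, with a median departure of 0.057.

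Outside the heat shock list, 2 protein-coding genes were called higher at 50 µmol/L, and both were named after their values were seen. AsnS, asparagine synthetase, which in mammals is a target of the stress factor ATF4, was at 270, 226 and 230 CPM, then 464, 656 and 513 CPM, then 409, 410 and 471 CPM. All libraries at 50 and 100 µmol/L were above those at 25 µmol/L, those at 50 and 100 µmol/L overlapped, and the departure was 0.75 (SE 0.109, adjusted p = 0.00369 in edgeR). The other 18 tested genes of the list of endoplasmic reticulum stress and ATF4 were not called. The list had a median departure of -0.0396, and the slope was above 0 in 17 of 19 genes, against 3529 of all 7231. An unadjusted p under 0.05 for a slope above 0 was found in 5 of the 19, against 2.49% of all genes; besides AsnS these were trbl, Shmt, crc and Ero1L. E(spl)mbeta-HLH, a repressor induced by Notch, was at 55.1, 61.7 and 63.3 CPM, then 86, 117 and 84.7 CPM, then 58.4, 65.1 and 58.4 CPM. It was level at the ends, with a slope of 0.01 (SE 0.127). Its departure was 0.66 (SE 0.109, adjusted p = 0.0114 in edgeR). That call was lost without 50 µmol/L replicate 2 and with title number runs as a factor. The joint call of E(spl)mbeta-HLH was lost with those runs too. It was also lost without 25 µmol/L replicate 2 or 3, 50 µmol/L replicate 2 or any library at 100 µmol/L. The joint call of AsnS was lost with those runs, while its departure stayed called.

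Of the 3 genes called lower at 50 µmol/L, pirk and Ets21C had their lowest mean there, and the joint test called Rel and IP3K1 with that shape. The largest of these departures was that of pirk, an inhibitor of the Imd pathway that the pathway itself induces. It lies on chromosome 2R from 21660967 to 21662995, minus strand. Its libraries had 54.3, 84.8 and 91 CPM at 25 µmol/L, 8.79, 8.58 and 9.74 CPM at 50 µmol/L and 35.1, 21.4 and 28.2 CPM at 100 µmol/L. The doses did not overlap, and DMSO was at 10.2, 14.2 and 20.1 CPM, above all libraries at 50 µmol/L and below all at 25 and 100 µmol/L. The mean at 50 µmol/L was 0.118 times that at 25 µmol/L, and that at 100 µmol/L was 3.13 times that at 50 µmol/L. The departure was -2.37 (SE 0.213, adjusted p = 4.37e-05 in edgeR). Rel, the transcription factor of the same pathway, was at 319, 441 and 437 CPM, then 252, 181 and 195 CPM, then 306, 265 and 222 CPM. Libraries at 50 and 100 µmol/L overlapped, and Rel passed the joint test (adjusted p = 0.0276 in edgeR) but not that of the departure, -0.63 (SE 0.14). That joint call was lost without 25 µmol/L replicate 2 or 3, 50 µmol/L replicate 2 or 3, or 100 µmol/L replicate 2, and with title number runs as a factor.

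Ets21C, a stress-responsive ETS factor, was at 57.1, 69.5 and 66.7 CPM, then 34.7, 25.2 and 32.7 CPM, then 42.7, 48.1 and 40.6 CPM, with no overlap between doses. Its departure was -0.77 (SE 0.128, adjusted p = 0.0115 in edgeR), a call lost without 50 µmol/L replicate 2 or 3, and its joint call was lost with title number runs. Its exons overlap nAChRbeta3 on the other strand. IP3K1, a kinase of inositol trisphosphate, had 34.1, 42 and 41.3 CPM, then 21.1, 20.1 and 20 CPM, then 26.7, 23.9 and 25.6 CPM, and passed the joint test alone (adjusted p = 0.0122 in edgeR), which it did not without 25 µmol/L replicate 2 or 3 or with title number runs.

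The lists around these genes held few calls. In the Imd list, 14 genes were tested; pirk was the 1 called for the departure, and pirk and Rel the 2 in the joint test. The receptor gene PGRP-LC and its relatives did not pass. Of the antimicrobial peptides, the secreted end products of Imd and Toll signalling, 10 were tested and 0 called; all 10 had a slope below 0, with a median of -0.35, and 9 a departure below 0, with a median of -0.44. An unadjusted p under 0.05 for a level below the line was found in 4 of the 10, against 5.82% of all genes. The median departure ran from -0.310 without 50 µmol/L replicate 3 to -0.709 without 50 µmol/L replicate 2. CecB, a cecropin named outside the naming rules, had low group means of 6.02, 1.13 and 2.58 CPM at the rising doses. Its adjusted p for the departure was 0.215 in edgeR, so it was not called. In the Toll list 11 of 11 departures were below 0, and in the JNK list, which includes the pathway's target and inhibitor puc, 11 of 12, against 3568 of all 7231 genes; none was called.

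The medians of these lists depended on single libraries. In the JNK list, replicate 1 at 50 µmol/L was at 0.12, against -0.27 and -0.29 for the other two of its group. Replicate 1 at 25 µmol/L was at -0.12, against 0.24 and 0.31. Without 50 µmol/L replicate 1, the median departure of the JNK list was -0.50 in place of -0.27, and without replicate 2 it was -0.14. That of the Imd list was -0.22 in place of -0.13 with the first of these left out, and -0.13 without 25 µmol/L replicate 1. When 50 µmol/L replicate 1 was left out, 51 genes were called for the departure in place of 15. Without 25 µmol/L replicate 1, 29 were called. In both cases all 15 genes were among those called. The median departure of the heat shock list was 0.76 and 0.83 in these cases, against 0.81. In the antimicrobial list all 3 libraries at 50 µmol/L, at -0.31, -0.52 and -0.31, were below the other 6, of which the lowest was -0.17.

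**Figure D5:**
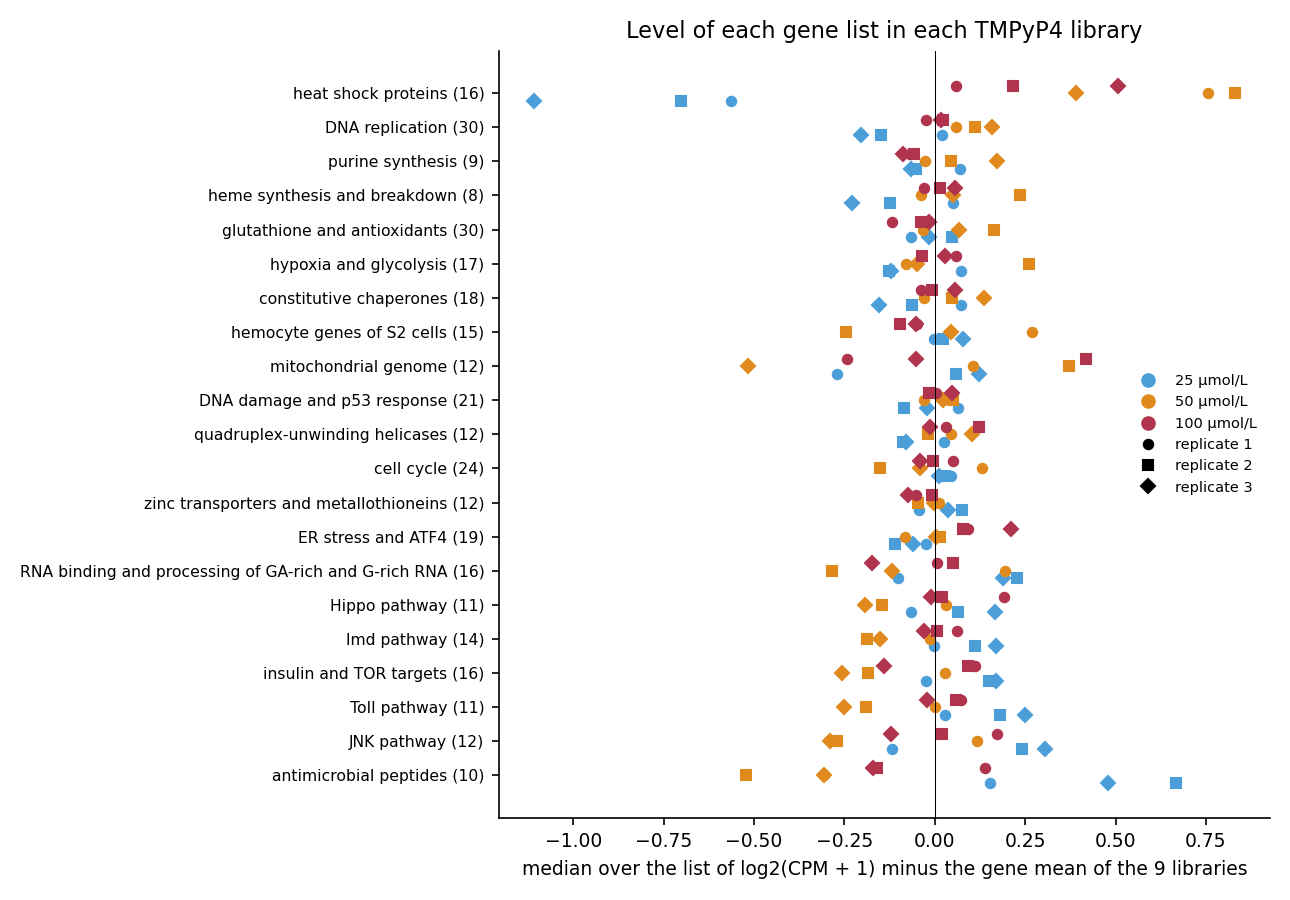
Median level of each gene list in the 9 TMPyP4 libraries (x axis, median over the list of log2(CPM + 1) minus the gene's mean over the 9 libraries; number of tested genes in brackets). Colours are the 3 concentrations and symbols the replicates. The heat shock list spans -1.11 to 0.83, and in the JNK list replicate 1 at 50 µmol/L, at 0.12, lies apart from -0.27 and -0.29.

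In the DNA replication list, which holds the MCM helicase, the origin complex and the polymerases, 30 of 30 departures were above 0, with a median of 0.13, against 3663 of all 7231 genes. An unadjusted p under 0.05 for a higher level was found in 5 of the 30, against 4.23% of all genes, and 0 were called. Single libraries moved these values: the median was 0.20 without 50 µmol/L replicate 1 or 25 µmol/L replicate 1, and the count of 5 was 12 without 25 µmol/L replicate 1, 3 when replicate 2 of that dose was left out and 2 when its replicate 3 was. The count was 1 with 50 µmol/L replicate 3 omitted, and 2 with 100 µmol/L replicate 1 omitted. Library by library the list stood at 0.02, -0.15 and -0.21 for 25 µmol/L. It had 0.06, 0.11 and 0.16 for 50 µmol/L, and -0.03, 0.02 and 0.02 for 100 µmol/L. The lists of DNA damage and p53 response (21 tested), cell cycle (24), heme synthesis and breakdown (8), hypoxia and glycolysis (17) and quadruplex-unwinding helicases (12) held 0 called genes in any test, and their median slopes lay between -0.0036 and 0.0522. Nor was any gene called in the lists of insulin and TOR targets, Hippo, purine synthesis, hemocyte genes, the mitochondrial genome or GA-rich RNA binding. In the glutathione and antioxidant list, 30 genes were tested and MsrA alone was called, in the joint test.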

How the data were processed

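RNA-seq counts of 9 TMPyP4 libraries (3 per concentration) were analysed, with 3 DMSO libraries shown beside them. The authors deposited whole-number read counts per gene, not normalised; the submitters' processing notes name FastQC 0.11.8, MultiQC 0.9, HISAT2 2.0.5, SAMtools 1.7, HTSeq 0.9.1 and dm6. The annotation and strand setting of the counting are not given in the sources used here. The 5 entries outside genes (no feature 0.783 to 1.04%, ambiguous 1.87 to 2.71%) were left out. Names and positions came from Ensembl BDGP6.54, matching 17358 of 17494 identifiers. The same annotation gave exonic lengths and overlaps.

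Genes passing filterByExpr (minimum count 10, minimum total 15) were fitted with edgeR 4.0.16 (TMM, glmQLFit, glmQLFTest) in R 4.3.3. The slope came from a fit with log2 concentration as a number, the departure and joint tests from a fit with 3 levels. Tests were two-sided with Benjamini-Hochberg adjustment over 7231 genes at 0.05. SE is the estimate's size over the square root of F. CPM used TMM factors over all 12 libraries, except in the sums of cell type markers, which used total gene counts alone. Depth limits precision, and so does the spread between libraries. The common biological coefficient of variation, a measure of that spread beyond counting noise, was 0.147. Pairs of replicates differed by more than counting noise (chi-square per gene 4.09 to 20.7), so none was taken as a library deposited again; this does not show separate cultures. The script was tested on simulated counts.

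Genes were named by rule. For the slope, these were up to 8 per direction past the threshold, with log2 CPM averaging 1 or more and 100 µmol/L libraries apart from those at 25; with none, the 3 of smallest p. For the departure, up to 5 per direction with 50 µmol/L libraries outside the other 6. Given whatever their values were foi, pirk, Ldh, CG8008, MsrA and the heat shock list. Every other called gene, and the genes with libraries in order, were named after their values were seen. Other list members, such as CecB and PGRP-LF, were named outside these rules. The members, lists and tests were chosen with earlier results of these data known. Alternatives were DESeq2 1.42.0 or its size factors, no filter, a replicate block, title numbers, a length offset, the unlogged dose and leaving out each library; thinning, summed Hsp70 copies and median departures of lists were added after seeing the data.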

Additional observations from a re-analysis of the deposited data

How the results depend on the processing

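The number of genes with a linear slope was 1 in the fit reported; it was 9 with no filter on low counts, 19 for the contrast of 100 and 25 µmol/L in the fit with 3 levels, 6 with DESeq2, 0 with title number runs as a factor, 0 with counts thinned to the shallowest library, and 0 to 1 when single libraries were left out. The number called for the departure at 50 µmol/L was 15; it was 129 with no filter (30 higher, 99 lower), 41 with DESeq2 (18 higher, 23 lower) and 13 to 51 with single libraries left out. The joint test called 23; it called 201 with no filter, 51 with DESeq2, 13 with title runs and 15 to 63 with single libraries left out. All 15 departure calls were shared with the fits without filter, with DESeq2, with the length offset and after thinning. With the replicate number as a block the 3 counts were 0, 14 and 17. Pairing was sought in log2 CPM after each gene's group mean was subtracted. On these residual values same-numbered libraries had correlations of -0.393 to 0.29. Among libraries of other groups, 3 of 9 libraries correlated best with their own number. These values showed no pairing by number, but so few libraries cannot exclude it. Under the block the departure call of Ets21C and the joint calls of Hsp23, Hsp26, Hsp70Ab, Rel, IP3K1 and Tmtc1 were lost. The title numbers, whose meaning is not stated, fall into runs, and no run holds libraries of both 25 and 100 µmol/L. Among the fitted libraries, 25 µmol/L replicates 1 and 2 share a run with no other dose. With runs as a factor these libraries therefore add nothing to a comparison between doses. With runs as a factor the slope turned to -0.13 for Hsp67Bc, -0.18 for DnaJ-1, -0.31 for Hsp70Aa, -0.11 for Hsp70Ba, -0.0077 for Hsp70Bc, -0.011 for Hsromega and 0.086 for pirk, none called. The departure of Ldh, not called, turned to 0.048 with runs and 0.061 without 50 µmol/L replicate 1 (-0.309 to 0.061 with single libraries left out); that of CG8008 turned to 0.00737, 0.060 and 0.043 without 50 µmol/L replicate 2 or 3 or 100 µmol/L replicate 1 (-0.285 to 0.060 with single libraries left out). The cause of these changes was not tested. The slope of log2 level on log2 exonic length in each library showed no even relation to concentration (Pearson r = -0.166, exact permutation p = 0.694, and Spearman rho = -0.105, exact permutation p = 0.833, n = 9). Without the 2 farthest libraries r was -0.333. A departure of these length slopes at 50 µmol/L was not tested. They were 0.071, -0.172 and -0.057 there, 0.023 to 0.052 at 25 µmol/L and -0.056 to 0.082 at 100 µmol/L. At a median SE of 0.082 per doubling of the dose, small slopes of single genes were not detectable.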

Other observations

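By runs of title numbers, whose meaning is not stated, the heat shock list had these median levels in log2 units. The run of 50 µmol/L replicate 3, 25 µmol/L replicate 3 and DMSO replicate 1 had 0.39, -1.11 and 0.67. The run of 50 µmol/L replicate 1, 100 µmol/L replicate 2 and DMSO replicate 2 had 0.76, 0.22 and 0.31. The run of 50 µmol/L replicate 2 with 100 µmol/L replicates 1 and 3 had 0.83, 0.06 and 0.51. The run of 25 µmol/L replicates 1 and 2 and DMSO replicate 3 had -0.56, -0.70 and -0.45. No run holds 25 and 100 µmol/L together, so the order of these 2 doses cannot be compared within a run.

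PGRP-LF, a membrane protein that restrains Imd signalling as pirk does, had group means of 26.8, 15.5 and 15.1 CPM at the rising doses and 17.7 CPM in DMSO. Its slope was -0.43 (SE 0.0985), which did not pass (adjusted p = 0.460 in edgeR).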
